A study of Mus musculus with 2 samples.

Results

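Granzyme-positive CD8 intraepithelial-type T cells were 229 of the 19571 cells assigned to a mouse in a droplet RNA-seq run of CD45+ immune cells from the mouse cecum. The cells were chosen by their own transcripts. A cell counted when it held at least 500 UMIs (unique molecular identifiers, each 1 counted transcript), at most 10% of them mitochondrial, and 1 clear mouse tag. It also needed a UMI of Cd8a, a UMI of Itgae or Cd160, a UMI of Gzma or Gzmb and a UMI of Cd3e, Cd3d or Cd3g, with Trdc, Cd4, Cd79a and Csf1r all at 0. There were 39 and 37 such cells in the Trpv1-ADC mice and 80 and 73 in the CTRL mice.

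The study asks how activating Trpv1+ neurons, the pain-sensing nerve cells that carry the capsaicin receptor, changes immune cells of the gut. The groups were 2 Trpv1-ADC mice and 2 littermate CTRL mice, all male and 101 days old. The labels give both groups the same treatment, an AAV vector injected into the peritoneum of newborns and later CNO, the ligand of designer receptors, 7 times on alternate days. Their strain entry lists Trpv1-WT.B6 beside Trpv1-Cre.B6 for the pooled run and ties neither to a mouse, so genotype is known here only through the group names. Cells had been freed with dispase and collagenase II and sorted for CD45, so a share of cells is a share of the sorted cells and not of the tissue. All mice shared 1 droplet run.

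Intraepithelial lymphocytes are T cells lodged between the epithelial cells of the gut lining. Many carry CD8 as an alpha-alpha pair, which goes with a partly innate set of receptors, and others carry the conventional alpha-beta pair of thymus-trained CD8 T cells that entered the gut after meeting antigen. Itgae encodes CD103, the integrin that binds E-cadherin on epithelium, Cd160 an inhibitory or co-stimulatory surface receptor, and Gzma and Gzmb the granzymes, proteases that kill target cells. Cd8b1 encodes the beta chain of CD8 and was not used to choose the cells.

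Each mouse was recognised by the DNA tag on its anti-CD45 antibody. These tags are shown because every comparison below rests on them, and all bases are in capitals because the whole tag names the mouse.
Trpv1-ADC 1: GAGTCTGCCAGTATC
Trpv1-ADC 2: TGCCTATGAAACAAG
CTRL 1: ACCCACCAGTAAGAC
CTRL 2: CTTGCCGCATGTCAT
In the granzyme-positive CD8 cells the mouse's own tag had a median of 410 and 554 counts in the Trpv1-ADC mice and 1670.5 and 942 in the CTRL mice. The next tag had a median of 17 counts in each Trpv1-ADC mouse, against 15.5 and 20 in the CTRL mice. Another 33 barcodes met the gene rule but carried a second tag and were left out, and their median was 10666 UMIs against 5738 in the cells that were kept.

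The summed libraries of granzyme-positive CD8 cells held 307357 and 310631 UMIs in the Trpv1-ADC mice, against 563616 and 516294 in the CTRL mice, and the median cell held 5772 and 6241 against 4998 and 5898 UMIs. The 5 markers Gzma, Gzmb, Itgae, Cd160 and Ccl5 each had UMIs in all 4 mice. Of the defining genes of other lineages, B cell Cd79a, macrophage Csf1r, Cd4 and Trdc were at 0 by the rule. Neutrophil markers summed to 0 and 1 UMIs in the Trpv1-ADC mice and to 2 and 4 in the CTRL mice. Markers of fibroblasts summed to 236 and 9 UMIs against 521 and 175, with 171 of the 236, 184 of the 521 and 152 of the 175 in 1 cell each. Markers of myeloid cells summed to 258 and 41 UMIs against 865 and 81, with 222 of the 258 and 348 of the 865 in 1 cell each. In all, 22 of the 229 cells held more than 4 UMIs of 25 marker genes of other cell types, and the Scrublet doublet caller marked 22 cells. Markers of naive CD8 T cells summed to 1204 and 1349 CPM, here the UMI count relative to the library's total, in the Trpv1-ADC mice and to 656 and 728 CPM in the CTRL mice. The 4 regulatory T cell markers, of which Ikzf2 is one, summed to 549.8 and 637 CPM in the Trpv1-ADC mice and to 1256 and 1189 CPM in the CTRL mice, with Foxp3 at 0 in both Trpv1-ADC mice. Both lists separated the groups, and their part in the results below was not tested.

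Granzyme-positive CD8 cells made up a smaller share of the sorted cells in both Trpv1-ADC mice than in either CTRL mouse. They were 0.820% and 0.734% of assigned cells in the Trpv1-ADC mice (exact 95% binomial intervals 0.583 to 1.12 and 0.517 to 1.01), against 1.56% and 1.57% in the CTRL mice (1.24 to 1.94 and 1.23 to 1.97). The intervals cover counting error only. The group means were 0.777% ± 0.0606 and 1.57% ± 0.0043 (SD, n = 2 mice each), and the exact two-sided permutation p was 0.333, the smallest that 2 against 2 mice can give. Within CD8 T cells, taken as assigned cells with Cd8a and Cd3 UMIs and the same 4 genes at 0, they were 5.62% and 4.33% in the Trpv1-ADC mice and 12.8% and 12.9% in the CTRL mice. The groups did not overlap on either scale, with an exact permutation p of 0.333 again.

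The wider CD8 T cell population was not smaller in the Trpv1-ADC mice. CD8 T cells were 14.6% and 16.9% of assigned cells in the Trpv1-ADC mice and 12.2% in each CTRL mouse. Cells that met the same rule without any granzyme UMI, 892 in all, were 5.07% and 4.602% of assigned cells in the Trpv1-ADC mice, against 4.30% and 4.28% in the CTRL mice. Among these and the granzyme-positive cells together, 13.9% and 13.8% carried a granzyme UMI in the Trpv1-ADC mice, against 26.7% and 26.8% in the CTRL mice. B cells, which should lack granzymes, had such a UMI in 3.77% and 1.81% of cells in the Trpv1-ADC mice and in 4.22% and 4.55% in the CTRL mice, at a median of 4584 and 4350.5 against 4541.5 and 4494 UMIs per cell. The shares in CD8 cells were above that background in all 4 mice. The B cells held fewer UMIs at the median than the granzyme-positive CD8 cells in all 4 mice. Some of the chosen cells may carry a granzyme UMI only as background, and their part in the group differences was not tested. Cells of the same rule with a Trdc UMI, a gamma delta counterpart of 98 cells, were 0.189% and 0.159% of assigned cells in the Trpv1-ADC mice and 0.527% and 1.16% in the CTRL mice.

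**Figure D1:**
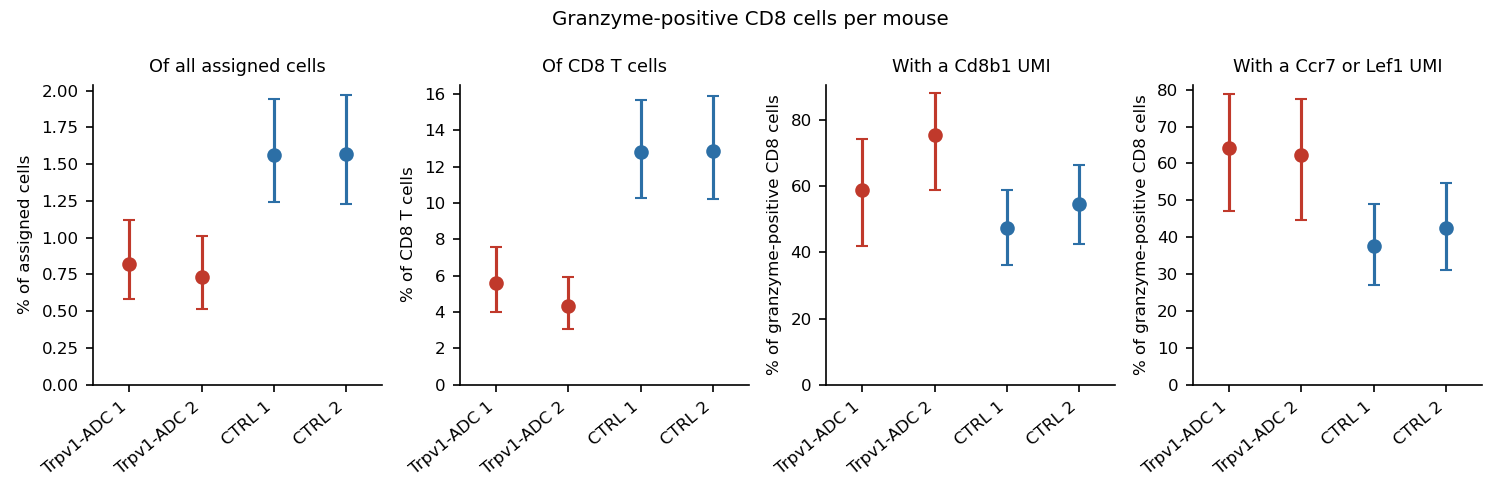
Share of granzyme-positive CD8 cells among all assigned cells and among CD8 T cells, and the share of these cells with a Cd8b1 UMI and with a Ccr7 or Lef1 UMI, in % per mouse (points) with exact 95% binomial intervals (bars). In the left pair of panels both Trpv1-ADC mice (0.820% and 0.734%, and 5.62% and 4.33%) lie below both CTRL mice, and in the right pair both lie above them.

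A fewer-cell result and a lower granzyme level per cell cannot be fully separated by a rule that asks for 1 UMI, so the granzymes are given as a description of what chose the cells. After TMM scaling, Gzmb had 426 and 499 CPM in the Trpv1-ADC mice and 658 and 746 CPM in the CTRL mice, without overlap, and Gzma had 767 and 2115 CPM against 1807 and 1764 CPM, with overlap. Gzmb was detected in 89.7% and 81.1% of the chosen cells in the Trpv1-ADC mice and in 86.3% and 93.2% in the CTRL mice. Gzma was detected in 30.8% and 51.4%, against 55.0% and 46.6%. Both were detected in 20.5% and 32.4% of cells in the Trpv1-ADC mice and in 41.3% and 39.7% in the CTRL mice. At the edge of the rule, cells with exactly 1 granzyme UMI were 56.4% and 35.1% of the chosen cells in the Trpv1-ADC mice and 32.5% and 34.2% in the CTRL mice, and the 892 cells just outside it had 0. With at least 2 granzyme UMIs required, 143 cells remained, which were 0.417% ± 0.0840 of assigned cells in Trpv1-ADC mice and 1.04% ± 0.0165 in CTRL mice (SD, n = 2 mice each). With every cell thinned to 2000 UMIs the shares were 0.269% ± 0.0461 and 0.652% ± 0.102. The groups did not overlap under either setting.

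The cells of the Trpv1-ADC mice also carried naive-cell transcripts more often. A UMI of Ccr7 or Lef1, genes of naive and circulating T cells, was found in 64.1% and 62.2% of granzyme-positive CD8 cells of the Trpv1-ADC mice, against 37.5% and 42.5% of those of the CTRL mice (exact permutation p = 0.333). Among CD8 T cells without any UMI of these genes, a setting chosen after seeing the data, the granzyme-positive share was 17.1% and 29.8% in the Trpv1-ADC mice and 41.7% and 30.7% in the CTRL mice (exact permutation p = 0.333). These rest on 82 and 47 CD8 T cells of the Trpv1-ADC mice and 120.0 and 137 of the CTRL mice, and Trpv1-ADC 2 and CTRL 2 lay close together. As a share of all assigned cells, granzyme-positive cells without these UMIs were 0.286% ± 0.0117 in Trpv1-ADC mice and 0.940% ± 0.0524 in CTRL mice (SD, n = 2 each), without overlap. Cycling cells, those with a UMI of Mki67 or Top2a, were 10.3% and 13.5% of the chosen cells in the Trpv1-ADC mice, against 18.8% and 9.59% in the CTRL mice, and the groups overlapped (exact permutation p = 1). The mean difference of -2.28 percentage points was 2.30 without CTRL 1 and -6.87 without CTRL 2.

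Set against the 892 granzyme-negative CD8 cells of the same gate, granzyme-positive cells expressed more chemokine and effector genes and fewer genes of naive and circulating T cells. Raw UMIs were summed per mouse and cell set, and the sets were compared within each mouse. Levels are given as CPM, the UMI count of a gene relative to its library's total after TMM scaling. That scaling was computed for each comparison on its own, so the CPM of a gene differs slightly between comparisons. Of 9344 genes tested, 412 passed an adjusted p of 0.05 (edgeR quasi-likelihood test, Benjamini-Hochberg adjustment), which is 4.41%. The genes of the rule, Gzma and Gzmb included, are in no such count here or below. Of the 412, 187 were higher in granzyme-positive cells (2.00% of the genes tested) and 225 lower (2.41%). With Trpv1-ADC 1 left out the number was 257, with Trpv1-ADC 2 left out 243 and with CTRL 1 left out 50.

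Chemokines were among the rises. Ccl5, which attracts T cells and was not used to choose the cells, stood at 4880.1, 5918, 6311 and 7602 CPM in granzyme-positive cells of Trpv1-ADC 1, Trpv1-ADC 2, CTRL 1 and CTRL 2, against 763, 797, 1201 and 1240.2 CPM in granzyme-negative cells of the same mice. Every granzyme-positive value was above every granzyme-negative one, and the log2 fold change was 2.64 ± 0.09 (SE; edgeR adjusted p = 6.27e-12). At least 1 Ccl5 UMI was found in 80.8% of granzyme-positive cells and 38.6% of granzyme-negative cells, against 9.38% of B cells, at median depths of 5738, 6200.5 and 4487 UMIs. Ccl4, a chemokine released by activated CD8 T cells, had 339, 452, 446 and 570.2 CPM against 61.9, 64.5, 47.2 and 71.6 CPM, a log2 fold change of 2.88 ± 0.15 (edgeR adjusted p = 1.67e-09). Without cells holding more than 4 UMIs of other cell types, the adjusted p of Ccl4 by edgeR was 0.0585 at a log2 fold change of 2.87. Its close relative Ccl3 rose by 2.45 ± 0.24 on the same scale (edgeR adjusted p = 1.57e-05). Of 23 tested cytokines, chemokines and their receptors, 6 rose and 3 fell, with a median log2 fold change of 0.25, against 0.00 for all genes tested.

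Cytotoxic genes outside the rule were split between those that rose and those that did not pass. Of 16 tested genes of the cytotoxic granule and of death ligands, 8 were higher in granzyme-positive cells and none was lower by the edgeR test, with a median of 0.98. Ifng, the cytokine interferon gamma, had 153, 60.4, 94.9 and 136 CPM against 12.5, 27.4, 23.0 and 9.92 CPM (log2 fold change 2.59 ± 0.48, edgeR adjusted p = 0.0493, and 0.113 without cells holding more than 4 UMIs of other cell types). Gzmk, a granzyme that the rule did not ask for, had 22.8, 44.5, 35.1 and 71.0 CPM against 7.90, 1.14, 7.45 and 13.5 CPM (2.57 ± 0.42, edgeR adjusted p = 0.00299). Serpinb9, which shields a killer cell from its own granzyme B, rose by 1.82 ± 0.22 on the log2 scale, and the death ligands Tnfsf10 (TRAIL) and Fasl rose as well, Tnfsf10 by 1.79 ± 0.29. Nkg7, a protein of cytotoxic granules, rose by 1.06 ± 0.15. Prf1, the pore-forming partner of the granzymes, had 19.6, 66.8, 17.6 and 55.2 CPM against 30.3, 18.3, 21.1 and 24.1 CPM, with overlap between the sets and an edgeR adjusted p of 0.398.

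Some transcription factors and receptors of tissue-resident effector cells also rose. Tbx21, which encodes the effector regulator T-bet, had 206, 143, 179 and 247 CPM in granzyme-positive cells, against 36.9, 41.7, 62.1 and 75.8 CPM in granzyme-negative cells (log2 fold change 1.84 ± 0.17, edgeR adjusted p = 8.39e-06). Prdm1 (Blimp-1, a repressor of memory genes) rose by 2.57 ± 0.38, Itga1 (the collagen-binding integrin CD49a) by 1.54 ± 0.16 and Rgs1, which dampens chemokine receptor signals, by 1.31 ± 0.13. Of 24 tested genes of residency and gut homing, 7 rose and 2 fell. The 2 that fell, S1pr1 (the exit receptor for lymph and blood) and its activator Klf2, are genes of recirculating cells. S1pr1 had 169.7, 143, 132 and 116 CPM in granzyme-positive cells, against 390.5, 326, 437 and 297 CPM in granzyme-negative cells (log2 fold change -1.38 ± 0.14, edgeR adjusted p = 2.57e-05). Of 23 tested innate-like and NK receptor genes, 9 rose and none fell by the edgeR test, with a median of 0.71, among them Klre1 (1.47 ± 0.22) and Klrk1 (1.15 ± 0.19), which encode natural killer receptors.

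Of 16 tested genes of naive and memory T cells, 8 were lower in granzyme-positive cells and 1, Gzmk again, was higher, while 5 of the 16 had a value above 0, with a median log2 fold change of -0.79. Lef1, a transcription factor of naive T cells, had 499, 544, 314 and 247 CPM in granzyme-positive cells, against 1214, 1038, 898 and 826 CPM in granzyme-negative cells (-1.36 ± 0.13, edgeR adjusted p = 1.5e-05). The log2 fold change was -0.86 ± 0.13 for its partner Tcf7 and -0.93 ± 0.11 for Bach2, a repressor of effector genes. Of 81 ribosomal protein genes tested, 32 fell and 80 had a value below 0, with a median of -0.30. Of 14 heat shock genes 7 were higher, among them Bag3 (1.10 ± 0.18), a partner of the HSP70 chaperones. Of 22 cell cycle genes, Ube2c and Ccna2 rose and none fell by the edgeR test, with a median of 1.01, although Ube2c had 0 CPM in granzyme-positive cells of Trpv1-ADC 1 against 1.98 CPM in granzyme-negative ones.

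**Figure D2:**
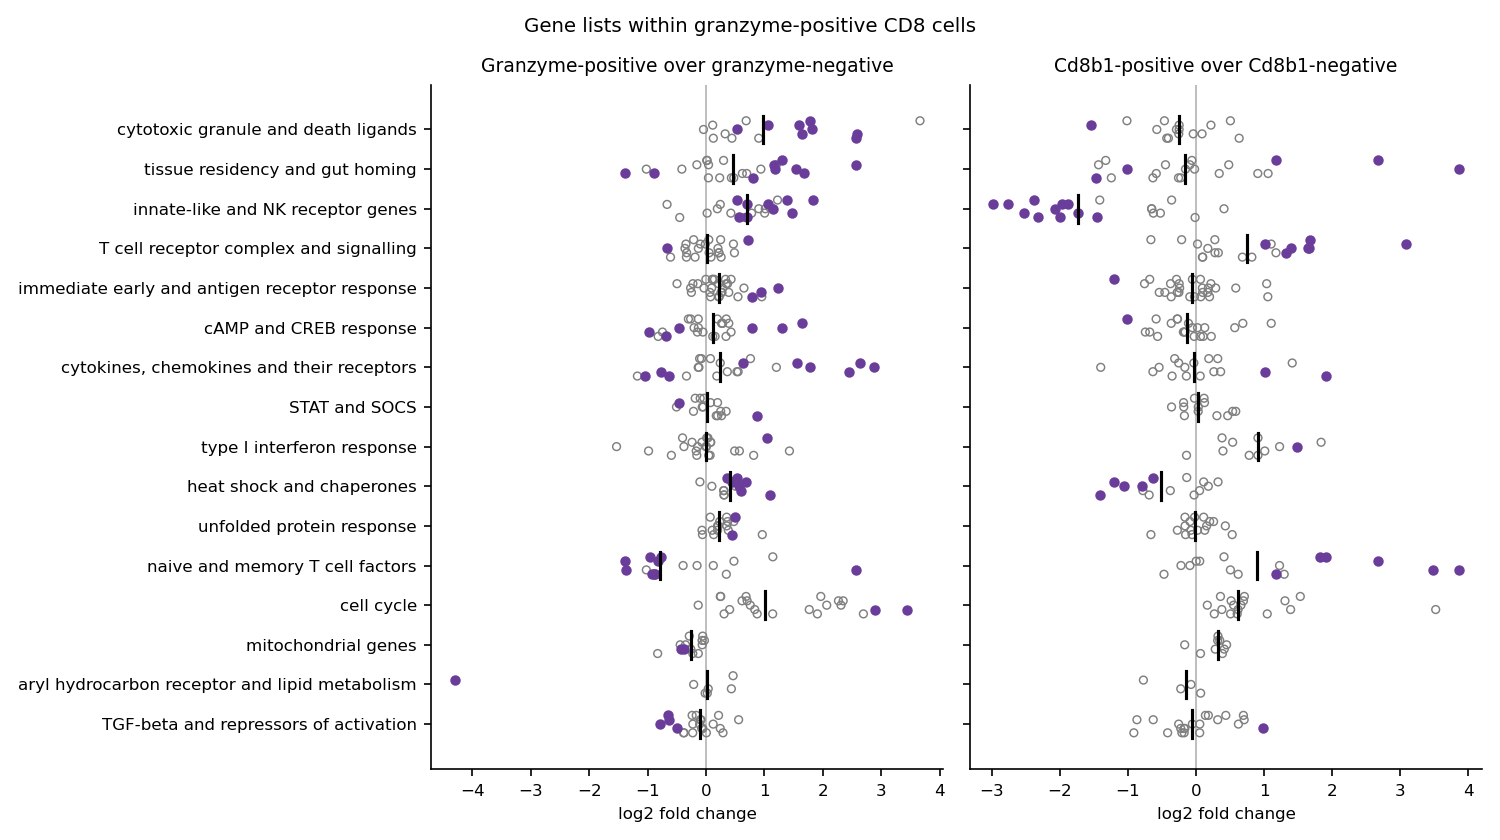
Log2 fold change of the tested members of 16 gene lists (points; filled where the edgeR adjusted p was under 0.05, vertical bars at the list median) in granzyme-positive over granzyme-negative CD8 cells (left) and in Cd8b1-positive over Cd8b1-negative cells among the granzyme-positive ones (right). Cytotoxic genes lie to the right in the left panel (median 0.98), and innate-like genes lie far to the left in the right panel (median -1.74).

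Fewer genes passed without the cells that held a Ccr7 or Lef1 UMI. Such a UMI does not by itself mark a naive CD8 cell. In the gamma delta counterpart Ccr7 was found in 27.6% and Lef1 in 25.5% of cells. With cells of both sets that held a UMI of Ccr7 or Lef1 left out, again chosen after seeing the data, 40 of 5408 genes passed (0.740%), 11 higher (0.203%) and 29 lower (0.536%). Of the 412 genes, 345 could be tested there and 16 passed again, and 306 of the 345 kept the sign of their change. The setting also reduced the sets, to 14, 14, 50 and 42 granzyme-positive cells and to 50, 19, 49 and 63 granzyme-negative cells of Trpv1-ADC 1, Trpv1-ADC 2, CTRL 1 and CTRL 2, and the part of each in the lower number was not tested. Ccl5 (2.11, edgeR adjusted p = 5.88e-10), Ccl4 (2.50), Prdm1 (2.01), Serpinb9 (1.49) and Nkg7 (0.96) were still higher in granzyme-positive cells. Gzmk (2.99, edgeR adjusted p = 0.0714), Itga1 (0.82, 0.087) and Tbx21 (0.76, 0.218) did not pass there. Nor did Ccl3 (1.29, 0.268), Rgs1 (0.47, 0.404), Tnfsf10 (1.20, 0.306), Klre1 (0.70, 0.419), Bach2 (-0.40, 0.669), Tcf7 (-0.61, 0.376) and Klf2 (-0.63, 0.905). Ifng (1.29), Fasl (0.69), Klrk1 (0.64) and Bag3 (0.43) did not pass either. S1pr1, Ube2c and Ccna2 had too few counts to be tested in that setting. Lef1 was absent there by the choice of cells. Hspa1a, an HSP70 chaperone that rose by 0.61 ± 0.13 with all cells, had a value of -0.22.

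The largest falls were of another kind. Krt20, Gsdmc4 and Ceacam1, genes of gut epithelium, had 3.95 CPM or less in granzyme-positive cells of every mouse, against 22.3, 69.7 and 115 CPM in granzyme-negative cells of Trpv1-ADC 2 and 13.0, 33.5 and 35.4 CPM in those of CTRL 1. In the granzyme-negative cells of the other mice they had 4.25 CPM or less. Krt20 had 0 UMIs in granzyme-positive cells and 62 in granzyme-negative cells, so it was at least 5.36-fold lower against a floor of 3 counts over the set. When cells with more than 4 UMIs of other cell types were left out, a setting chosen after seeing the data, none of these 3 genes had enough counts to be tested. Krt20 and other epithelial markers are among the 25 genes that this setting counts, so that outcome was largely fixed beforehand.

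Within the granzyme-positive cells, Cd8b1 marked a deep split. A Cd8b1 UMI was found in 58.97% and 75.7% of cells in the Trpv1-ADC mice and in 47.5% and 54.8% in the CTRL mice, or 129 of the 229 cells. The group means were 67.3% ± 11.8 and 51.1% ± 5.16 (SD, n = 2 each; exact permutation p = 0.333), and their difference of 16.2 percentage points was 24.5 without Trpv1-ADC 1 and 7.83 without Trpv1-ADC 2. Thinned to 2000 UMIs they were 44.8% ± 1.67 and 27.6% ± 3.63, and with at least 2 granzyme UMIs required 51.8% ± 15.1 and 49.2% ± 4.09, where the groups overlapped (exact permutation p = 1). A cell without a Cd8b1 UMI may still express the gene. The median depth was 6977, 6947, 4988 and 6799.5 UMIs in Cd8b1-positive cells of Trpv1-ADC 1, Trpv1-ADC 2, CTRL 1 and CTRL 2, against 5110, 4902, 5037 and 5091 in Cd8b1-negative cells.

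Between Cd8b1-positive and Cd8b1-negative cells, 204 of 4921 genes passed (edgeR adjusted p under 0.05; 4.15%), of which 120 were higher in Cd8b1-positive cells (2.44%) and 84 lower (1.71%). With 1 mouse left out the number was 106 (Trpv1-ADC 1), 105 (CTRL 1) and 75 (CTRL 2). Cd8b1-positive cells expressed more genes of naive and circulating cells and of the T cell receptor pathway, and Cd8b1-negative cells expressed more innate-like receptors and chaperones. All of the genes named here as passing moved the same way in all 4 mice, within each mouse.

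Ccr7, the receptor that leads naive cells into lymph nodes, had 769.6, 749, 290.2 and 413 CPM in Cd8b1-positive cells of Trpv1-ADC 1, Trpv1-ADC 2, CTRL 1 and CTRL 2, against 20.6, 43.8, 54.0 and 5.69 CPM in Cd8b1-negative cells (log2 fold change 3.86 ± 0.43 (SE), edgeR adjusted p = 0.000189). Lef1 had 827, 719, 674 and 402 CPM against 82.4, 21.9, 54.0 and 51.2 CPM (3.48 ± 0.29, edgeR adjusted p = 1.32e-06). S1pr1 rose by 2.68 ± 0.33 and Il7r, the receptor for the survival cytokine interleukin 7, by 1.91 ± 0.27. Of 16 tested naive and memory T cell factors 6 rose and none fell by the edgeR test, with a median of 0.90 against 0.01 for all genes tested. Cmah, an enzyme of sialic acid synthesis, had 194, 165, 139 and 146 CPM against 0, 0, 7.71 and 5.69 CPM (4.75 ± 0.53, edgeR adjusted p = 5.23e-05). Its values in Cd8b1-negative cells were near the floor, so the size of this change is uncertain.

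Of 20 tested genes of the T cell receptor complex and its signalling, 7 rose in Cd8b1-positive cells and none fell by the edgeR test, with a median of 0.75. They were Ubash3a (3.09 ± 0.53), Cd6 (1.68 ± 0.35), Themis (1.67 ± 0.33), Cd28 (1.65 ± 0.32), Lat (1.39 ± 0.28), Cd247 (1.32 ± 0.26) and Thy1 (1.02 ± 0.27). Cd28 encodes the main co-stimulatory receptor, Lat the adaptor that links the receptor to its signals and Themis a regulator of thymic selection. Themis had 741, 804, 940.2 and 933 CPM in Cd8b1-positive cells, against 515, 65.7, 312 and 222 CPM in Cd8b1-negative cells, so the sets did not overlap. Of 80 ribosomal protein genes, 44 rose and all 80 had a value above 0, with a median of 0.59.

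The innate-like list lay on the other side. Of 19 tested innate-like and NK receptor genes, 11 were lower in Cd8b1-positive cells and none higher by the edgeR test, with a median of -1.74. Ikzf2 (Helios, a transcription factor of unconventional and regulatory T cells) had 119.7, 186, 397 and 378 CPM in Cd8b1-positive cells, against 1153, 1534, 1542 and 1643 CPM in Cd8b1-negative cells (-2.52 ± 0.23, edgeR adjusted p = 3.27e-06). Fcer1g, a signalling chain of innate receptors, had 45.6, 80.4, 114 and 169.9 CPM against 577, 1183, 632 and 534 CPM (-2.77 ± 0.33, edgeR adjusted p = 0.000334). Klrd1 (CD94, partner of the NKG2 receptors) had 125, 220.0, 200.3 and 249.6 CPM against 690.0, 1162, 713 and 642 CPM (-1.97 ± 0.23, edgeR adjusted p = 9.59e-05). In each of these the lowest Cd8b1-negative mouse was above the highest Cd8b1-positive one. The log2 fold change was -2.98 ± 0.63 for Zbtb16 (PLZF, the regulator of innate-like T cells), -2.07 ± 0.32 for Tyrobp (the adaptor DAP12) and -1.74 ± 0.23 for Cd7.

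**Figure D3:**
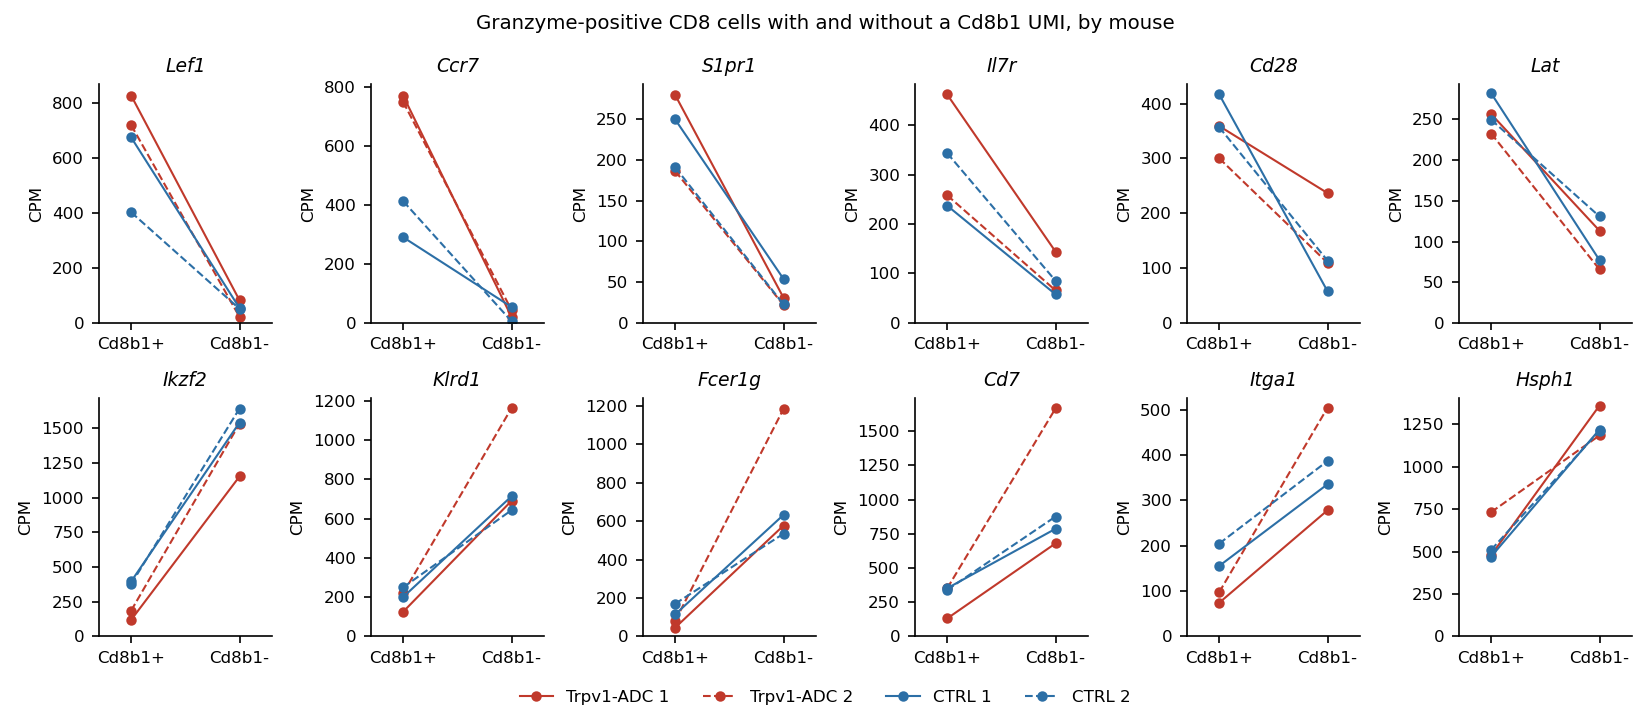
CPM of 12 genes in granzyme-positive CD8 cells with (Cd8b1+) and without (Cd8b1-) a Cd8b1 UMI, with 1 line per mouse. The top row falls from left to right in every mouse (Ccr7 769.6, 749, 290.2 and 413 CPM against 20.6, 43.8, 54.0 and 5.69 CPM), and the bottom row goes up in every mouse.

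Myo1e, which encodes a motor protein of the cell cortex, had 39.9, 29.6, 119 and 121 CPM in Cd8b1-positive cells, against 494, 482, 898 and 796 CPM in Cd8b1-negative cells (-3.15 ± 0.27, edgeR adjusted p = 1.32e-06). The log2 fold change was -1.47 ± 0.28 for Itga1 and -1.02 ± 0.19 for Rgs1. Of 14 heat shock genes 5 were lower in Cd8b1-positive cells, among them Hsph1 (-1.21 ± 0.19) and Hspa1b (-1.06 ± 0.19), both of the HSP70 system. Ccl4 was higher in Cd8b1-positive cells (1.01 ± 0.24, edgeR adjusted p = 0.0217), while Ccl5 had 2771, 3194, 6005 and 7375 CPM against 10391, 24239.5, 8189 and 9814 CPM and did not pass (edgeR adjusted p = 0.44). Timm8a1, a mitochondrial import factor, passed with 57.0, 12.7, 20.4 and 229 CPM against 20.6, 0, 0 and 0 CPM, most of it in CTRL 2.

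Transcripts of the gamma chain genes were frequent in the Cd8b1-negative cells. A Trgc1 UMI was found in 8.53% of Cd8b1-positive and 26.0% of Cd8b1-negative cells, and a Trgc2 UMI in 20.9% and 46.0%. In the gamma delta counterpart the shares were 57.1% and 46.9%, in granzyme-negative CD8 cells 9.42% and 15.9%, and in B cells 0.816% and 0.334%. Trac, the constant segment of the T cell receptor alpha chain, had a UMI in 86.0% of Cd8b1-positive and 84.0% of Cd8b1-negative cells, in 61.2% of the gamma delta counterpart and in 6.86% of B cells. Median depths were 6518, 5085.5, 6028, 6200.5 and 4487 UMIs in Cd8b1-positive cells, Cd8b1-negative cells, the gamma delta counterpart, granzyme-negative cells and B cells. A gamma delta cell whose Trdc transcript was missed cannot be told apart from an alpha beta cell by this rule. Beta chain transcripts were also frequent in the gamma delta counterpart, with a Trbc1 UMI in 56.1% and a Trbc2 UMI in 78.6% of its cells. A Trdc UMI alone thus does not set its cells cleanly apart from alpha beta cells, which limits the comparison that follows.

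Against the gamma delta counterpart itself, 17 of 5961 genes passed (0.285%), of which 10 were higher in the granzyme-positive CD8 cells (0.168%) and 7 lower (0.117%). The Trpv1-ADC mice held only 9 and 8 gamma delta cells, against 27 and 54 in the CTRL mice, and the number was 8 without Trpv1-ADC 2, 11 without CTRL 1 and 39 without CTRL 2. Of 16 cell cycle genes 4 rose, among them Mki67 with 3.65, 146, 58.3 and 74.5 CPM in granzyme-positive CD8 cells of Trpv1-ADC 1, Trpv1-ADC 2, CTRL 1 and CTRL 2, against 0, 20.3, 0 and 5.32 CPM (log2 fold change 3.80 ± 0.65, edgeR adjusted p = 0.00669). In the gamma delta sum of Trpv1-ADC 2, 20.3 CPM is 1 UMI. The fold change of Mki67 thus rests on gamma delta values near the floor, and its size is uncertain. Maf, a transcription factor of effector T cells, rose by 2.85 ± 0.54. S100a4, which binds calcium and marks effector and memory cells, rose by 2.84 ± 0.45, with 499 CPM in Trpv1-ADC 2 against 119 CPM or less in the other mice. Ccl5 was lower, at 5462, 6635, 6986 and 8197 CPM against 16558, 9220.4, 11966 and 14283 CPM (-0.91 ± 0.15, edgeR adjusted p = 0.00669), and so were Scin, the actin-severing protein scinderin (-4.23 ± 0.65), and Ern1, a sensor of unfolded proteins (-1.23 ± 0.26).

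Between Trpv1-ADC and CTRL mice, few genes of the granzyme-positive CD8 cells passed. Of 5938 tested, 8 had an adjusted p under 0.05 (edgeR; 0.135%), 1 higher in Trpv1-ADC mice (0.0168%) and 7 lower (0.118%), while 624 had a raw p under 0.05. The 8 were Bag3, which rose, and Abcb1a, Dgat1, Junb, Tnfaip3, Ikzf2, Lncpint and Vps37b, which fell. They kept their direction in every setting tried. The 8 were picked from these same mice, whose groups did not overlap for any of them, so a kept direction was largely fixed beforehand. None of the 8 passed without the robust fit, with Scrublet calls removed, with at least 2 granzyme UMIs required, with equal numbers of cells per mouse, or in Cd8b1-negative cells alone. Leaving out 1 mouse left a lone mouse in its group, assumed to vary like the others, so those fits add no support for the 8. Only 2 mice stand in each group, and the libraries of the Trpv1-ADC mice were smaller.

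Bag3, a co-chaperone that responds to protein stress, had 451 and 438 CPM in the Trpv1-ADC mice, against 161 CPM in each CTRL mouse (log2 fold change 1.46 ± 0.21 (SE), edgeR adjusted p = 0.0351). Junb, a subunit of the AP-1 factor that follows antigen receptor signals, had 1651 and 1256 CPM against 2835 and 3286 CPM (-1.07 ± 0.14, edgeR adjusted p = 0.0351). Vps37b, a subunit of the membrane-sorting complex ESCRT-I, had 1362 and 1181 CPM against 2279.6 and 2573 CPM (-0.93 ± 0.12, edgeR adjusted p = 0.0202). In each the 2 groups were apart by more than the spread within them.

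Tnfaip3 (A20, an inhibitor of NF-kappaB signalling) had 468 and 499 CPM in the Trpv1-ADC mice and 861 and 1173 CPM in the CTRL mice (-1.07 ± 0.18, edgeR adjusted p = 0.0479). Ikzf2 had 468 and 387 CPM against 943 and 832 CPM (-1.05 ± 0.17, edgeR adjusted p = 0.0479). Abcb1a, an efflux pump, had 348 and 231 CPM against 749 and 717 CPM (-1.34 ± 0.21). Dgat1, which makes triglycerides, had a log2 fold change of -1.31 ± 0.21 and the non-coding RNA Lncpint of -0.98 ± 0.16, and all 3 of these had an edgeR adjusted p of 0.0479.

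**Figure D4:**
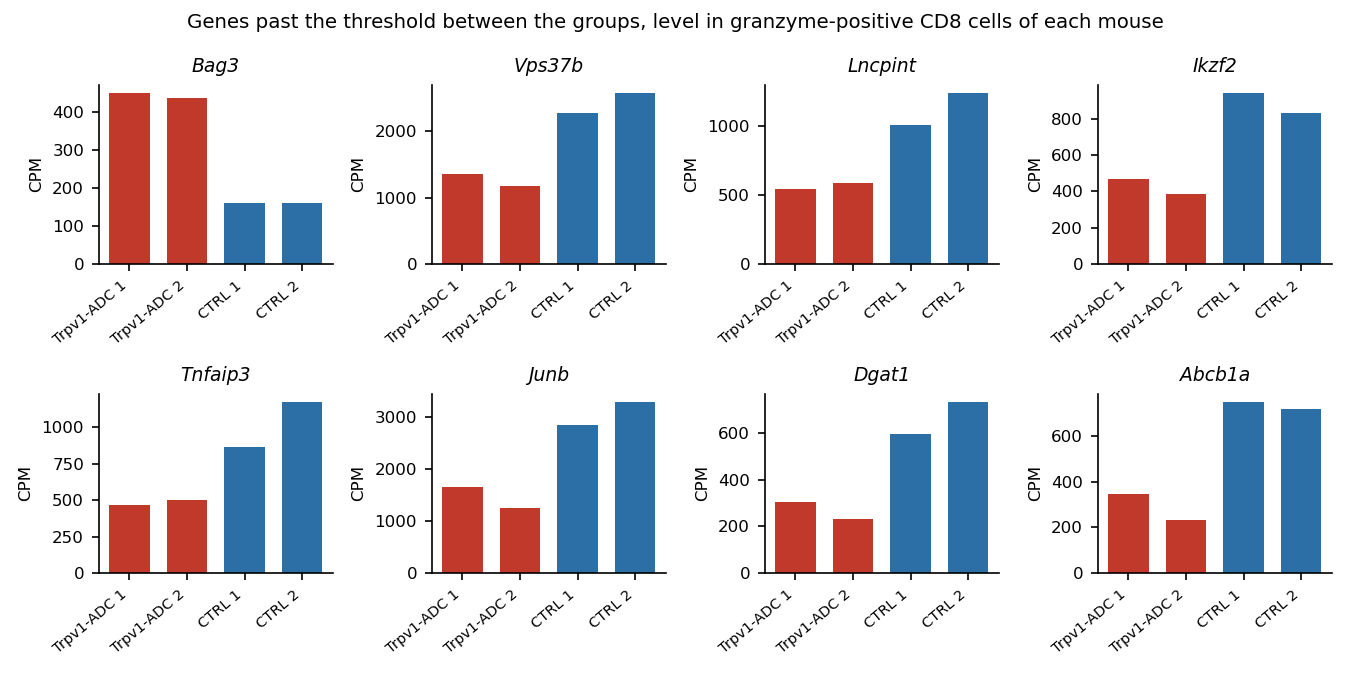
CPM of the 8 genes past the edgeR threshold in granzyme-positive CD8 cells, with 1 bar per mouse (Trpv1-ADC mice left, CTRL mice right). Bag3 is higher in both Trpv1-ADC mice (451 and 438 against 161 CPM in each CTRL mouse), and the other 7 are lower in both, for example Junb with 1651 and 1256 CPM against 2835 and 3286 CPM.

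Several genes lay just short of the threshold. Foxo1, a regulator of quiescence and trafficking, had 496 and 587 CPM in the Trpv1-ADC mice, against 994 and 1047 CPM in the CTRL mice (edgeR adjusted p = 0.0518). Ccr7 had 482 and 608 CPM against 161 and 251 CPM (log2 fold change 1.41 ± 0.25, edgeR adjusted p = 0.0574). Fosb, another AP-1 subunit, and Nr4a2, a receptor-induced nuclear factor, had log2 fold changes of -0.81 and -1.03 (edgeR adjusted p = 0.0574 and 0.0637), and Rgs1 had -1.29 (edgeR adjusted p = 0.0637).

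By list, 2 of 29 tested immediate early and antigen receptor response genes were lower in Trpv1-ADC mice, Junb and Tnfaip3, and 23 of the 29 had a value below 0, with a median log2 fold change of -0.53 against 0.01 for all genes tested. Of 21 tested innate-like and NK receptor genes, Ikzf2 passed and all 21 had a value below 0, with a median of -0.62. The heat shock list did not move as a whole with Bag3. Among its 14 tested genes Bag3 alone passed, 7 had a value above 0 and 7 below 0, with a median of 0.02. Those below 0 included Hspa5 (-0.48), Dnajb1 (-0.49) and Dnaja1 (-0.34), none of which passed by edgeR. Of 23 cAMP and CREB response genes none passed by edgeR, 11 had a raw p under 0.05 and the median was -0.39. The 80 ribosomal protein genes all had a value above 0, none passing by edgeR and 43 with a raw p under 0.05, with a median of 0.25. For the 4 members with the lowest raw p, that direction did not hold in every set of cells, and the whole list was not summarised there. Without cells holding a Ccr7 or Lef1 UMI the log2 fold change was -0.08 for Rps29, -0.01 for Rps28 and 0.01 for Rps19, and in Cd8b1-negative cells alone it was -0.05, -0.16 and -0.26. Rpl32 stayed above 0 in these settings, at 0.29 and 0.02. Within Cd8b1-positive cells Rps29, Rps28, Rps19 and Rpl32 had 0.37, 0.34, 0.47 and 0.35. Of 13 type I interferon response genes, 12 had a value above 0 and none passed by edgeR, with 2 at a raw p under 0.05. DESeq2 called 22 genes in this comparison, the 8 included.

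The Cd8b1-positive share and the share of cells with a Ccr7 or Lef1 UMI moved with the group. Both were higher in the Trpv1-ADC mice, as given above, and the part of this make-up in each gene's difference was not tested as such. Within Cd8b1-positive cells alone, 7 of 4486 genes passed (edgeR; 0.156%), Il1r2 higher (0.0223%) and 6 lower (0.134%), namely Ccl5, Junb, Rgs1, Dennd4a, Nr3c1 (the glucocorticoid receptor) and an unnamed gene model. Il1r2, Dennd4a and Nr3c1 are named after their values were seen. Ccl5 stood at 2771 and 3194 CPM in Cd8b1-positive cells of the Trpv1-ADC mice, against 6005 and 7375 CPM in those of the CTRL mice (log2 fold change -1.18, edgeR adjusted p = 0.0027). A Ccl5 UMI was found in 52.2% and 57.1% of these cells against 86.8% and 80.0%, and, thinned to 2000 UMIs, in 43.5% and 57.1% against 78.9% and 80.0%. In all granzyme-positive CD8 cells Ccl5 had a log2 fold change of -0.36 (edgeR adjusted p = 0.342). Without cells holding a Ccr7 or Lef1 UMI it had 0.47 (edgeR adjusted p = 0.230). Of the Cd8b1-positive cells, 6 of 23 and 7 of 28 in the Trpv1-ADC mice lacked these UMIs, against 15 of 38 and 15 of 40 in the CTRL mice. The part of this make-up in the Ccl5 difference was not tested.

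In Cd8b1-negative cells, 16 and 9 cells of the Trpv1-ADC mice and 42 and 33 of the CTRL mice, Ccl5 had 10391 and 24239.5 CPM against 8189 and 9814 CPM (log2 fold change 1.02, edgeR adjusted p = 0.646). The difference between these changes of Ccl5 was not tested. Ikzf2 had a log2 fold change of -1.33 within Cd8b1-positive cells (edgeR adjusted p = 0.127) and of -0.19 within Cd8b1-negative cells (edgeR adjusted p = 0.836). Junb had -1.10 within Cd8b1-positive cells (edgeR adjusted p = 0.00555) and -1.01 within Cd8b1-negative cells (edgeR adjusted p = 0.347). Without the cells that held a Ccr7 or Lef1 UMI, Junb (-1.31), Vps37b (-1.72), Abcb1a (-1.70) and Bag3 (1.74) passed and Ikzf2 (-0.67, edgeR adjusted p = 0.356) did not.

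**Figure D5:**
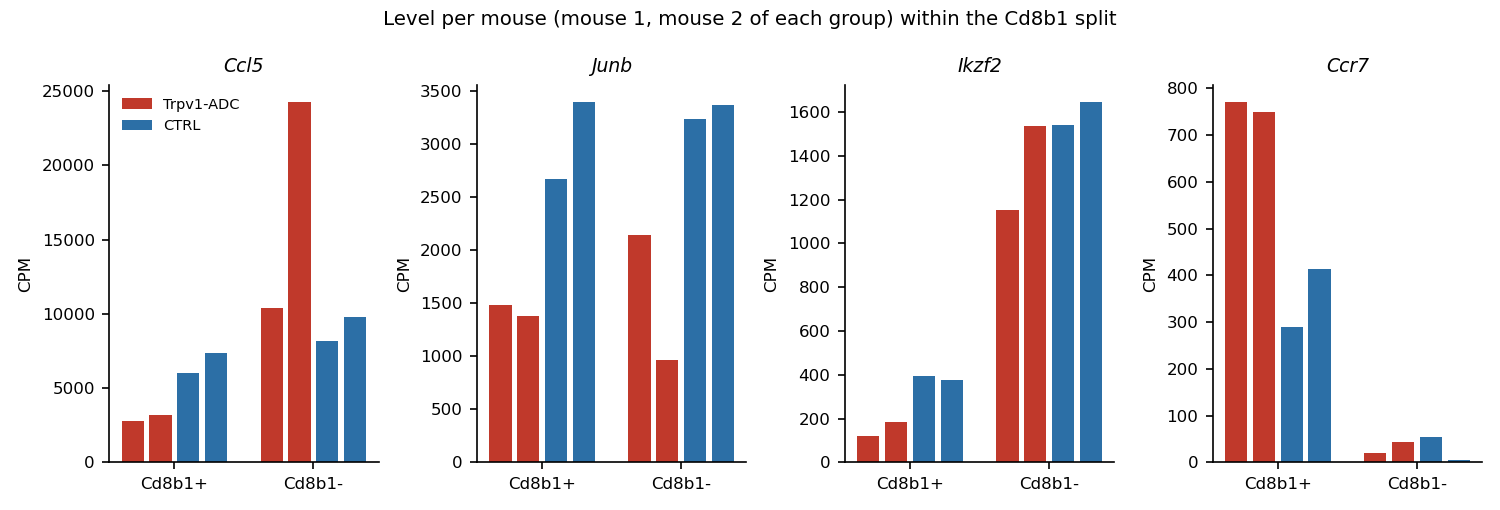
CPM of Ccl5, Junb, Ikzf2 and Ccr7 in granzyme-positive CD8 cells with and without a Cd8b1 UMI, with 1 bar per mouse (mouse 1 then mouse 2 of each group). Among Cd8b1-positive cells Ccl5 is lower in both Trpv1-ADC mice (2771 and 3194 against 6005 and 7375 CPM), among Cd8b1-negative cells it is not, and Ikzf2 is high in Cd8b1-negative cells of every mouse (1153 CPM or more).

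Whether the change with the group was particular to these cells was tested against both counterparts. Of 9344 genes, the Trpv1-ADC change differed between granzyme-positive and granzyme-negative CD8 cells for none by edgeR (0%), with 437 at a raw p under 0.05, and for none by DESeq2. After an unnamed gene model, the lowest p values belonged to Ccr7, Junb and Lncpint. Ccr7 had 447 and 569 CPM in granzyme-positive cells of the Trpv1-ADC mice and 149 and 237 CPM in those of the CTRL mice, beside 643 and 629.9 CPM and 647 and 628 CPM in granzyme-negative cells (difference of the log2 changes 1.42 ± 0.26, edgeR adjusted p = 0.512). Against the gamma delta counterpart, none of 5961 genes differed by edgeR (0%), with 366 at a raw p under 0.05, and none by DESeq2. Camk4, a calcium-dependent kinase, had the lowest p there after an unnamed gene model (2.05 ± 0.37, edgeR adjusted p = 0.222). Bag3, which rose with the group, had 983 and 1094 CPM in gamma delta cells of the Trpv1-ADC mice. In those of the CTRL mice it had 239 and 184 CPM. The difference of its log2 changes was -0.82 ± 0.39 (edgeR adjusted p = 0.822). The Trpv1-ADC values rest on 9 and 8 gamma delta cells.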

How the data were processed

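Both deposited matrices were used as they stand, one with raw UMI counts per gene and the other with raw tag counts per barcode. The submitters' processing notes list mm10, Cell Ranger and Seurat, without versions. The chemistry is given as 5' in one place and as 3' in another. Whether tag counts are UMIs or reads was not given in the sources used here.

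Of 23063 barcodes, 22734 passed at least 500 UMIs and at most 10% mitochondrial UMIs, and 19571 had a top tag of at least 10 counts and 3 times the next. Counts were summed per mouse and cell set and tested with edgeR 4.0.16 (TMM, filterByExpr, robust quasi-likelihood fit, mouse as a block between cell sets; Benjamini-Hochberg over all genes tested, threshold 0.05). DESeq2 1.42.0 was an alternative. Log2 fold changes carry the SE, and the procedure was tested on simulated data. Binomial intervals are Clopper-Pearson, 95%. Genes used by the rule, and Cd8b1 in the split by it, stayed in the fits and the adjustment, but are left out of every count of genes, and no p of theirs is reported. The labels call the CTRL mice littermates, and p-values measure the spread between these mice.

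The cells, gene lists and markers were chosen with earlier results of these data known. Genes are named where they passed, moved the same way in all mice, held at least 50 counts and ranked highest by fold change, where they belong to a list, or by lowest p. Segments of antigen receptor genes were counted, not named, and 1 gene was taken out of the lists and is not reported here.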

Additional observations from a re-analysis of the deposited data

Results flagged for a closer look

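The tag file lists 15 tags, of which the labels name 4. Of the other 11, 9 carried counts, 22446 in all, or 0.127% of all tag counts, in data that no comparison used.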

How the results depend on the processing

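For Trpv1-ADC against CTRL, 8 genes passed. The number was 3 with stricter tags and with RLE size factors, 0 with Scrublet calls removed, with at least 2 granzyme UMIs, with equal cells per mouse, without Cd8b1-positive cells and without the robust fit, 37 without cycling cells, 43 with at most 4 UMIs of other cell types, 22 with DESeq2, 134 without the low-count filter and 51 to 208 with 1 mouse left out. The replicate number as a block gave 15, but the labels only number the mice. With 2 pairs, a correlation of 0.123 between their differences over 5946 genes cannot show whether the numbers pair the mice. Between Cd8b1-positive and Cd8b1-negative cells the number was 317 with at most 4 UMIs of other cell types, 118 with DESeq2 and 75 to 143 with 1 mouse left out, against 204. Against the gamma delta counterpart it was 11 with Scrublet calls removed, 9 with DESeq2, 68 without the filter and 8 to 39 with 1 mouse left out, against 17. Against granzyme-negative cells it was 40 without cells holding a Ccr7 or Lef1 UMI, 690 with at most 4 UMIs of other cell types, 742 without the filter and 50 to 389 with 1 mouse left out, against 412. The differences between the changes, 0 in both, became 2 with stricter tags in both, 13 (gamma delta) and 22 (granzyme-negative) without the filter, and 1 to 19 and 3 to 18 with 1 mouse left out. The settings on UMIs of other cell types, on Ccr7 or Lef1 and on Cd8b1-negative cells were chosen after seeing the data. Hspa1a, higher in granzyme-positive cells, had a value of -0.22 without cells holding a Ccr7 or Lef1 UMI.

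The difference in the share of assigned cells was -0.789 percentage points, and -0.835 with stricter cells, -0.849 with Scrublet calls removed, -0.627 with at least 2 granzyme UMIs, -0.383 thinned, -0.654 without Ccr7 or Lef1 UMIs and -0.832 to -0.746 with 1 mouse left out. Of CD8 T cells it was -7.86, and -5.92 with at least 2 granzyme UMIs, -6.40 thinned, -12.7 without those UMIs and -8.50 to -7.22 with 1 mouse left out. For the Cd8b1 share it was 16.2, and 2.65 with at least 2 granzyme UMIs and 7.83 to 24.5 with 1 mouse left out. For cycling cells it was -2.28, and -6.87 to 2.30 with 1 mouse left out. The causes were not tested. The gene comparisons rest on 37 to 80 granzyme-positive cells per mouse.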
